A study of Homo sapiens with 45 samples.

Results

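Several of the 10 genes described here act where hypoxic cells keep pyruvate from becoming acetyl-CoA, adjust the respiratory chain or remove mitochondria. All 10 were measured by RNA sequencing of T47D cells, a luminal, oestrogen receptor positive breast cancer line. They were PDK1, PDK3 and PDHA1 of the pyruvate dehydrogenase gate, the mitophagy receptor genes BNIP3, BNIP3L and FUNDC1, the respiratory chain genes NDUFA4L2 and HIGD1A, the mitochondrial protease gene LONP1 and MXI1, a gene of the MYC and MAX network. The set is a list of gene names chosen by function, with earlier results of these data known, and holds 10 of the 60624 genes listed in each of 4 deposited count tables. All 10 passed the low-count filter in every table.

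The 45 libraries formed 15 groups of 3. The shRNA table covered a control hairpin (shCtrl) under normoxia or hypoxia, and under hypoxia a hairpin (shZHX2) targeting the zinc finger and homeobox transcription factor ZHX2. All libraries of the other tables came from hypoxic cells. The hexanediol table held an untreated control and cells given 0.5% or 1% 1,6-hexanediol, an alcohol that disturbs phase-separated condensates, for 24 h; the labels give no genotype there. The rescue table covered shCtrl with vector and, on the shZHX2 background, the vector and 3 ZHX2 forms that the labels name WT, PA and SA. The sgRNA table held cells labelled sgCtrl, sgZHX2, teton_control and teton_sgZHX2. Lentivirus-infected cells were drug-selected, per the labels' protocols; the labels give neither the oxygen level nor the hours of hypoxia, nor whether a line was a clone or a pool. The labels do not say that the 3 libraries of a group were separate cultures, so each p-value reflects library-to-library spread, which may be technical. The series states 2 questions that these groups answer: which hypoxia-inducible genes depend on ZHX2, and what changes when phase separation is disturbed.

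The pyruvate dehydrogenase complex turns pyruvate into acetyl-CoA and so joins glycolysis to the citric acid cycle. Pyruvate dehydrogenase kinases, among them PDK1 and PDK3, switch the complex off by phosphorylating its E1 alpha subunit, the product of PDHA1. BNIP3, BNIP3L (also called NIX) and FUNDC1 sit in the outer mitochondrial membrane and bind LC3 family proteins, which brings the organelle into an autophagosome. BNIP3 and PDK1 are textbook targets of the hypoxia-inducible factors (HIF), which bind DNA at a core of 5 letters, ACGTG or GCGTG. NDUFA4L2 is a HIF-induced relative of the respiratory chain protein NDUFA4, HIGD1A is a small inner membrane protein that associates with the chain, LONP1 degrades proteins of the mitochondrial matrix, and MXI1 pairs with MAX and opposes MYC.

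Promoter sequence is shown for 3 of the 4 genes that rose most in hypoxia and for FUNDC1, whose window held no match. Windows of 300 bases, 250 before and 50 after an annotated start, were taken from RefSeq (GRCh38.p14) and were at hand for 8 of the 10 genes, 12 windows in all. Either core motif, on either strand, occurred in 48.45% of 35116 such windows across the genome, so 1 match is common. ACGTG occurred in 21.41% and GCGTG in 36.54%, windows with both being counted in each. Each sequence is written 5′ to 3′ on the gene's strand, and capitals mark the core ACGTG, the core GCGTG or the reverse complement of either. The letters CACGTG hold the first core on both strands. BNIP3 held 6 matches between 143 and 104 bases before its start, of which the stretch at chr10:131982014-131982133 (minus strand) carries those shown. The 28 bases around the start of a second PDK1 transcript, chr2:172556066-172556093 (plus strand), carry 2 matches, while the 300 bases at the first PDK1 start held 0. MXI1 carried 1 match of each core before its second start, in chr10:110210028-110210147 (plus strand), and FUNDC1 held 0 in its window, of which chrX:44543002-44543109 (minus strand) is shown. The number of matches did not follow the direction of change throughout. The windows of PDHA1 and HIGD1A, which were lower in hypoxia, held 4 GCGTG matches, and 1 ACGTG and 2 GCGTG matches. LONP1, which was higher in hypoxia (log2 fold change 0.75), held 5 ACGTG and 2 GCGTG matches in its first window. A match describes letters and is not evidence of binding.
BNIP3: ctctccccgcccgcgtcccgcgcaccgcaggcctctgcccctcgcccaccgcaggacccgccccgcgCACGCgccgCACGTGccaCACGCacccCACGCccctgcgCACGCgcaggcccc
PDK1: tgcccgcCACGTccctCACGTaccactc
MXI1: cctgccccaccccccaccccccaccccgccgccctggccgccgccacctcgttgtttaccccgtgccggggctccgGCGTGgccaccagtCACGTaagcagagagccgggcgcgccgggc
FUNDC1: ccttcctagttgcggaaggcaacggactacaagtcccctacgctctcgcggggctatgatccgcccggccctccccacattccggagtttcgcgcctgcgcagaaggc

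Total counts ran from 14111216 to 27217814 per library. Luminal epithelial markers (ESR1, PGR, GATA3, FOXA1, KRT8, KRT18, KRT19 and EPCAM) were present in every table, with a summed level of 3315 to 58442 CPM (counts per 1000000 counts of the scaled library size) per group. The basal keratin KRT17 stood at 605 to 2000 CPM in the groups of the rescue and sgRNA tables and below 2 CPM in the other 2 tables, so the cells of the tables were not alike in this marker. Summed fibroblast markers reached at most 70.8 CPM and leukocyte markers 7.99 CPM. Mitochondrially encoded transcripts took 4.55% to 4.76% of counts in normoxia, 9.12% to 9.57% in hypoxia and 11.9% to 12.4% with shZHX2 in hypoxia, against 0.312% to 1.26% in the rescue table. Of 8 luminal markers 6 were higher in hypoxia than in normoxia and ESR1 (-0.37) and PGR (-1.89) were lower, the sum going from 23048 to 58442 CPM. Of the 8, 7 were lower with shZHX2 in the shRNA libraries, their sum going from 58442 to 27157 CPM. The part of these shifts in the results below was not tested. The transcript of ZHX2 itself was lower with shZHX2, at a log2 fold change of -1.86 (SE 0.15) in the shRNA table and -2.22 (SE 0.07) in the rescue table. In the libraries labelled sgZHX2 it was 49.6 CPM against 45.1 CPM in sgCtrl (log2 fold change 0.13, SE 0.04; -0.05 and not called with GC and length offsets), and in those labelled teton_sgZHX2 49.3 CPM against 47.5 CPM (0.05, SE 0.04, not called). Since editing need not alter RNA abundance, these values do not test the guides, and the guide groups are named by their labels alone.

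All 10 genes differed between hypoxia and normoxia in shCtrl cells, 7 higher and 3 lower in hypoxia. The threshold for a call was 0.05 on p-values from edgeR's quasi-likelihood test after Benjamini-Hochberg adjustment. In this comparison 79.9% of the 14903 genes tested were called, so being called set these genes little apart from the rest. Their sizes differed widely: BNIP3 rose 23.7-fold, PDK1 6.41-fold, NDUFA4L2 6.06-fold and MXI1 5.08-fold, while the others moved by less than 2-fold. The median log2 fold change of the 10 was 0.78, beside 0.12 over all genes tested. In RNA from whole cultures, fewer cells of a kind and less RNA per cell cannot be told apart.

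Of the pyruvate gate, PDK1 (chromosome 2, 172555373 to 172608669, plus strand, GRCh38) stood at 5.58, 5.18 and 4.38 CPM in the normoxic libraries and at 32.8, 31.3 and 33.0 CPM in the hypoxic ones. Every hypoxic library was thus far above every normoxic one (log2 fold change 2.68, SE 0.09, adjusted p = 3.21e-35). PDK3 (X chromosome, 24465221 to 24541862, plus strand), the kinase with the weaker rise, went from 19.1, 19.4 and 19.3 CPM to 32.2, 35.0 and 34.4 CPM (0.82, SE 0.07; 0.33 with library size only and 1.61 with offsets for GC content and length). PDHA1 (X chromosome, 19343893 to 19361705, plus strand), which encodes the subunit that these kinases phosphorylate, fell from 129, 119 and 130 CPM to 71.3, 69.6 and 74.0 CPM (-0.81, SE 0.04; -1.30 with library size only and -0.46 with the offsets). The kinases were higher and their substrate was lower, with no overlap between the groups. With 79.9% of all genes called here, such a gap need not set them apart. Its share over all genes was not counted.

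Among the mitophagy receptors BNIP3 (chromosome 10, 131966455 to 131982013, minus strand) had 22.8, 24.1 and 24.2 CPM in normoxia and 559, 565 and 564 CPM in hypoxia (4.57, SE 0.04, adjusted p = 4.31e-68). Per kilobase of annotated exon, it moved from 4.45 to 106 CPM and was the most abundant of the 10 in hypoxia, where in normoxia LONP1 (37.2 CPM per kb), PDHA1 (28.05), HIGD1A (20.6), FUNDC1 (11.8) and BNIP3L (7.01) had stood above it. BNIP3L (chromosome 8) had 30.1, 27.9 and 32.6 CPM against 40.3, 41.2 and 44.0 CPM, a rise of 0.47 (SE 0.06) that was -0.02 and not called with scaling by library size only and 1.64 with offsets for GC content and length. FUNDC1 (X chromosome, 44523639 to 44543001, minus strand) fell from 15.9, 16.1 and 17.4 CPM to 11.1, 11.5 and 13.2 CPM (-0.46, SE 0.10; -0.95 with library size only, -0.14 and not called with the offsets). The 3 receptor genes therefore did not share a direction.

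Of the respiratory chain and quality control genes, NDUFA4L2 (chromosome 12, 57234903 to 57240715, minus strand) was the least abundant, at 0.512, 1.05 and 1.21 CPM in normoxia and 6.25, 5.00 and 5.84 CPM in hypoxia (2.60, SE 0.23; 1.73 with the offsets). Its lowest library held 11 counts, so its fold change is the least precise of the 10. LONP1 (chromosome 19, 5691834 to 5720572, minus strand) had 192, 188 and 187 CPM against 317, 319 and 316 CPM, a rise of 0.75 (SE 0.03) that was 0.26 with library size only and turned to -0.09 with the offsets. HIGD1A (chromosome 3, 42784298 to 42804531, minus strand) fell from 32.9, 33.3 and 37.3 CPM to 18.7, 20.8 and 25.4 CPM (-0.67, SE 0.08; -1.16 with library size only, -0.09 and not called with the offsets). MXI1 (chromosome 10, 110207605 to 110287365, plus strand) rose from 5.58, 5.31 and 5.38 CPM to 28.5, 25.7 and 28.6 CPM (2.35, SE 0.09). Scaling on library totals alone shifted the all-gene median from 0.12 to -0.36 and the share of calls that were higher from 53.9% to 29.6%; the rises of BNIP3, PDK1, NDUFA4L2 and MXI1 exceed that shift.

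**Figure D1:**
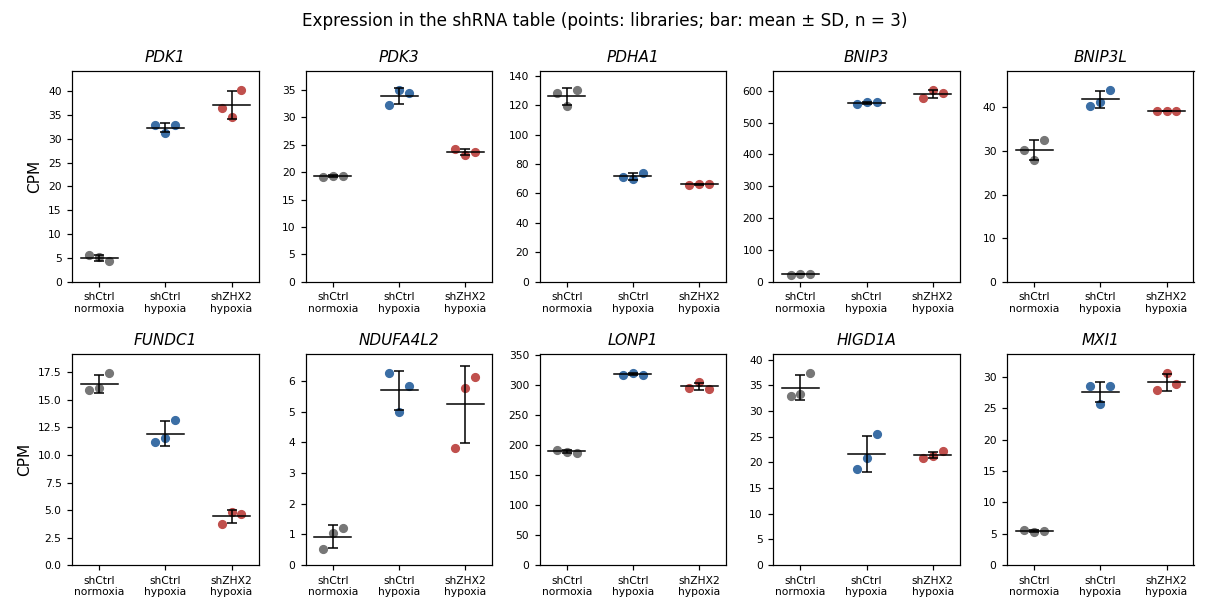
Level of the 10 genes in the shRNA table, in CPM on linear axes that start at 0, for shCtrl in normoxia, shCtrl in hypoxia and shZHX2 in hypoxia. Points are libraries, and bars are the mean ± SD of 3. BNIP3 moved from 23.7 to 562 CPM with hypoxia and FUNDC1 from 11.95 to 4.41 CPM with shZHX2; the rise of BNIP3L reversed with scaling by library size only and that of LONP1 with GC and length offsets.

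The wider pathways moved in mixed directions. Of 15 genes of the pyruvate dehydrogenase gate, 13 passed the filter, 5 higher and 8 lower in hypoxia, with a median of -0.38. The E3 subunit gene DLD fell by 2.61 (SE 0.10) and the E3 binding protein gene PDHX by 1.47 (SE 0.09). Of 25 mitophagy receptors and adaptors, 23 passed, 13 higher and 10 lower (median 0.41). TBK1, a kinase that phosphorylates autophagy adaptors, fell by 2.91 (SE 0.13) and the adaptor gene CALCOCO2 by 2.14 (SE 0.07). Of 9 mitochondrial proteases, 4 were higher and 5 lower (median -0.51), with YME1L1 at -2.41 (SE 0.07), OMA1 at -2.19 (SE 0.25) and CLPX at -1.67 (SE 0.11). Of 11 respiratory chain adjustment genes, 7 passed, 5 higher and 2 lower (median 0.48), including NDUFA4 at 0.73 (SE 0.03). Of 11 MAX network genes, 8 were higher and 1 lower (median 0.78), with MYC at 1.46 (SE 0.04) and MGA, a MAX partner, at -3.29 (SE 0.16). For comparison, 43.1% of all genes tested were called higher and 36.8% lower.

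With shZHX2 in hypoxia in the same table, 6 of the 10 genes were called, 2 higher and 4 lower, where 66.8% of all genes were called. FUNDC1 and PDK3 fell, and the genes with the largest hypoxic rise hardly moved. FUNDC1 had 3.75, 4.84 and 4.64 CPM with shZHX2, all below the 11.1 to 13.2 CPM of hypoxic shCtrl libraries (-1.44 on the log2 scale, SE 0.12, adjusted p = 1.35e-15). PDK3 had 24.3, 23.2 and 23.7 CPM, between its normoxic and hypoxic levels in shCtrl (-0.52, SE 0.07, adjusted p = 1.2e-09; -0.28 with library size only).

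The 4 other called genes changed by at most 0.20 on the log2 scale, and each of those calls was lost or turned under an alternative. PDK1 had 36.4, 34.5 and 40.3 CPM (0.20, SE 0.07; -0.16 with GC and length offsets), and it lost its call without the second shCtrl hypoxia or the third shZHX2 library (0.17 and 0.13). BNIP3 had 577, 603 and 592 CPM (0.07, SE 0.03) and lost its call without any 1 of the shCtrl hypoxia libraries or without the second shZHX2 library (0.06 to 0.07). PDHA1 was at -0.11 (SE 0.05; 0.12 with library size only) and LONP1 at -0.09 (SE 0.03; 0.14 with library size only and with the offsets). BNIP3L (-0.09), HIGD1A (-0.02), NDUFA4L2 (-0.12) and MXI1 (0.08) were not called; with library size only BNIP3L (0.14), HIGD1A (0.22) and MXI1 (0.31) were called, and with the offsets BNIP3L (-0.26) and HIGD1A (-0.20). The 95% interval of the MXI1 difference was -0.07 to 0.22 and that of BNIP3L -0.22 to 0.03. This comparison shares its shCtrl hypoxia libraries with the comparison of hypoxia and normoxia.

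In the pathway lists with shZHX2, 5 of 13 pyruvate gate genes were higher and 7 lower, including PDPR, which regulates the activating phosphatase (1.52, SE 0.05), and the E2 subunit gene DLAT (-0.97, SE 0.06). Of 23 mitophagy genes 10 were higher and 9 lower, with the adaptor gene OPTN at -0.93 (SE 0.09) and GABARAPL1 at -0.86 (SE 0.08). Of 9 proteases 1 was higher and 6 lower, with the protease gene CLPP at -0.79 (SE 0.04) and its partner CLPX at 0.55 (SE 0.13). Of 7 respiratory chain genes 2 were higher and 3 lower, and of 11 MAX network genes 4 and 5, with MYC at -1.06 (SE 0.04). Of all genes 33.6% were called higher and 33.2% lower.

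The rescue table gave a different picture for the same hairpin label. Between shZHX2 and shCtrl cells with vector, 9 of the 10 genes were called, 3 higher and 6 lower, where 69.2% of 14302 genes were called, and the median of the 10 was -0.87 beside -0.01 over all genes. PDK1, PDK3, BNIP3, BNIP3L, FUNDC1 and MXI1 each fell by 1.73-fold to 2.10-fold. NDUFA4L2 and HIGD1A rose, and PDHA1 was not called. The tables were fitted apart, so the difference between them was not tested; ZHX2 fell in both.

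PDK1 had 38.7, 36.3 and 40.6 CPM in shCtrl vector cells and 20.2, 19.4 and 19.6 CPM in shZHX2 vector cells (log2 fold change -0.96, SE 0.06, adjusted p = 2.55e-25). PDK3 fell from 98.8, 100.3 and 104 CPM to 53.6, 53.9 and 49.3 CPM (-0.96, SE 0.04). BNIP3 fell from 1023, 964 and 1009 CPM to 572, 585 and 573 CPM (-0.79, SE 0.03). In each of these genes the 2 groups were far apart against the spread of their libraries. BNIP3L went from 339, 323 and 324 CPM to 161, 164 and 168 CPM (-0.999, SE 0.03), FUNDC1 from 12.4, 14.3 and 13.6 CPM to 6.92, 5.65 and 6.70 CPM (-1.07, SE 0.09). MXI1 went from 187, 181 and 188 CPM to 94.6, 89.3 and 93.7 CPM (-1.002, SE 0.03). The 3 mitophagy receptor genes, of which only BNIP3 and BNIP3L were higher in hypoxia in the shRNA table, all fell here.

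HIGD1A moved the other way, from 18.0, 18.6 and 19.0 CPM to 30.4, 24.2 and 25.2 CPM (0.52, SE 0.06, adjusted p = 2.38e-11). NDUFA4L2 was low in this table, at 1.94, 1.37 and 1.68 CPM in shCtrl and 2.98, 2.62 and 3.72 CPM in shZHX2 vector cells (0.91, SE 0.19, adjusted p = 1.34e-05). LONP1 was at 0.15 (SE 0.03), which became -0.02 and not called with GC and length offsets. PDHA1 differed by 0.05, with a 95% interval of -0.02 to 0.12, and was called higher (0.12) with the offsets. The 2 kinase genes fell, and the gene of their substrate was not called.

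With the WT form of ZHX2 all 10 genes were called against shZHX2 vector cells, 8 higher and 2 lower, where 69.7% of all genes were called, and the median of the 10 was 1.01 beside 0.00 over all genes. The ZHX2 transcript stood at 72.3 CPM with WT, above the 32.0 CPM of shCtrl vector cells. PDK1 reached 48.7, 46.8 and 52.6 CPM (1.32 above vector, SE 0.06), which was 128% ± 7.63 of its shCtrl mean. BNIP3 reached 1272, 1242 and 1281 CPM, 127% ± 2.05 of shCtrl, BNIP3L 124% ± 0.664 and MXI1 121% ± 1.14 (SD, n = 3 each). PDK3, at 99.4, 99.5 and 98.4 CPM, and FUNDC1, at 13.7, 13.4 and 13.99 CPM, came to 97.9% ± 0.639 and 102% ± 2.24 of shCtrl. In each of these 6 genes every WT library was above every vector library. How many of all genes were separated in this way was not counted.

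HIGD1A was again the exception, since it rose with shZHX2 and rose further with WT, to 38.8, 37.8 and 38.7 CPM or 207% ± 2.84 of shCtrl (0.54 above vector, SE 0.06; 0.13 with GC and length offsets). NDUFA4L2 fell with WT (-0.41, SE 0.18, adjusted p = 0.0346), a call lost in DESeq2, without the low-count filter, with the offsets (-0.10) and without the first or second WT or the third vector library (-0.25 to -0.39). PDHA1 was called at 0.11 (SE 0.04) and not called in DESeq2, with library size only (0.01), with the offsets (0.03) or without the first WT or the second vector library (0.06 and 0.08). LONP1 was at -0.12 (SE 0.03), turning to 0.25 with the offsets. The mitochondrial share of counts was 0.312% to 0.333% with WT and 0.785% to 0.807% with vector. Cell type markers moved with these groups: all 8 luminal markers were lower with shZHX2 vector than with shCtrl vector and all 8 were higher with WT than with vector, with sums of 46217 CPM in shCtrl, 31248 CPM with vector, 43990 CPM for WT, 28881 CPM for PA and 32284 CPM for SA. Of 4 basal markers (KRT5, KRT14, KRT17 and TP63) 3 passed the filter, 2 were higher with vector and 2 lower with WT. The part of these shifts in the results was not tested.

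With the forms PA and SA all 6 genes that fell with shZHX2 stayed below their level with WT. Against vector, PA gave 6 calls, 5 higher and 1 lower, where 47.6% of all genes were called, and SA gave 8 calls, 7 higher and 1 lower, where 41.7% were called, 20.2% higher and 21.5% lower. With PA 24.7% of all genes were higher and 22.9% lower. The ZHX2 transcript itself reached 54.0 CPM for PA and 80.5 CPM for SA (WT 72.3 CPM). PDK1 had 26.3, 27.3 and 29.9 CPM with PA (0.49, SE 0.06; 0.22 with the offsets) and 29.8, 31.8 and 28.8 CPM with SA (0.61, SE 0.06). MXI1 had 122, 128 and 125 CPM with PA (0.44, SE 0.03) and 125, 126 and 120 CPM with SA (0.42, SE 0.03; 0.27 with the offsets). Both genes lay between vector and WT with either form.

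BNIP3 stood at 583, 587 and 583 CPM with PA, within 0.02 (SE 0.03) of vector on the log2 scale and not called (0.17 and called with library size only), and at 813, 791 and 812 CPM with SA (0.48, SE 0.03, adjusted p = 1.76e-26). In percent of shCtrl this was 58.5% ± 0.204 with PA and 80.7% ± 1.24 with SA, against 57.7% ± 0.763 with vector (SD, n = 3). FUNDC1 was not called with PA (0.15, SE 0.10; 0.30 and called with library size only) and was called with SA (0.43, SE 0.10; 0.14 and not called with the offsets). BNIP3L had 216, 210 and 217 CPM with PA (0.38, SE 0.03; 0.14 with the offsets) and 203, 202 and 204 CPM with SA (0.30, SE 0.03; 0.06 and not called with the offsets). PA and SA were each compared with vector and WT, not with each other, so the difference between them was not tested.

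PDK3 rose by 0.11 (SE 0.04) with PA, a call lost in DESeq2, without the filter and without the first PA or the third vector library (0.07 to 0.10), and turned to -0.04 with the offsets, and by 0.29 (SE 0.04; 0.14 with the offsets) with SA. HIGD1A rose with both, by 0.37 (SE 0.06; 0.20 with the offsets) and 0.71 (SE 0.06; 0.36 with the offsets), and LONP1 was the called gene that fell, at -0.33 (SE 0.03; -0.19 with library size only) with PA and -0.35 (SE 0.03; -0.10 with the offsets) with SA. NDUFA4L2 and PDHA1 were not called with either form. Directly against WT, PA gave 9 lower genes and 0 higher, where 66.9% of all genes were called (33.7% lower, 33.2% higher), and SA gave 7 lower and 1 higher, where 64.1% were called (32.0% lower, 32.1% higher). Against WT the 6 genes that fell with shZHX2 were lower by 0.82 to 1.11 with PA and by 0.64 to 1.01 with SA, as log2 fold changes. PDHA1, LONP1 and HIGD1A were lower with PA than with WT by 0.11, 0.21 and 0.17, and each turned to above 0 with library size only, where 70.6% of all calls were higher in place of 49.6%. SA raised HIGD1A above WT by 0.17 (SE 0.05). These comparisons share the vector or the WT libraries.

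**Figure D2:**
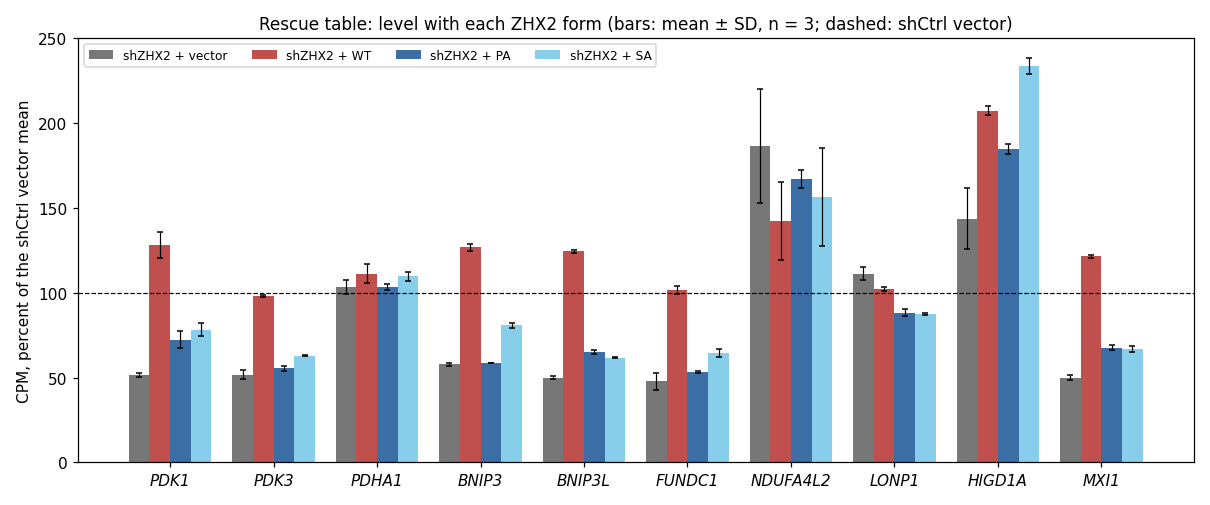
Level of the 10 genes in the 4 shZHX2 groups of the rescue table, as a percent of the mean CPM in shCtrl cells with vector (dashed line at 100). Bars are the mean of 3 libraries and error bars the SD. For BNIP3 the bars are 57.7% with vector, 127% with WT, 58.5% with PA and 80.7% with SA, while HIGD1A lies above 100 in all 4 groups.

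In the lists of the rescue table, shZHX2 with vector gave 3 higher and 5 lower of 13 pyruvate gate genes, with DLAT at -1.14 (SE 0.07) and the kinase gene PDK2 at -1.01 (SE 0.13). Of 23 mitophagy genes 5 rose and 15 fell, while PGAM5, a mitochondrial phosphatase that acts on FUNDC1, rose by 1.22 (SE 0.04). All 7 respiratory chain genes that passed the filter of 11 were higher, with COX7A2 at 0.96 (SE 0.03) and ISCU at 0.76 (SE 0.04). Proteases gave 4 higher and 4 lower of 9, and MAX network genes 4 and 5 of 11, led by MYC at -1.64 (SE 0.03) and MXD1 at -1.36 (SE 0.04). Over all genes 33.9% were called higher and 35.3% lower. With WT against vector the counts were 6 higher and 5 lower for the pyruvate gate, 9 and 11 for mitophagy, 2 and 5 for the respiratory chain, 5 and 3 for the proteases and 4 and 5 for the MAX network, where 35.1% of all genes were higher and 34.6% lower. DLAT stood at 1.02 (SE 0.07) and MYC at 1.51 (SE 0.03).

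In the sgRNA table all 10 genes were called between sgZHX2 and sgCtrl, 2 higher and 8 lower, where 73.1% of 15781 genes were called, and the median of the 10 was -0.55 beside 0.01 over all genes. PDK3 had 146, 149 and 149 CPM in sgCtrl and 67.5, 67.4 and 63.8 CPM in sgZHX2 (-1.16, SE 0.03, adjusted p = 3.07e-32). BNIP3L fell from 525, 532 and 535 CPM to 253, 250 and 249 CPM (-1.08, SE 0.02; -0.63 with GC and length offsets). MXI1 fell from 219, 224 and 219 CPM to 108, 113 and 108 CPM (-1.01, SE 0.03). In these 3 genes every sgZHX2 library was below every sgCtrl library, and the share of all genes so separated was not counted.

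FUNDC1 fell from 19.0, 16.5 and 17.1 CPM to 11.6, 10.4 and 10.3 CPM (-0.70, SE 0.07; -0.34 with the offsets). PDK1 fell from 101, 108 and 109 CPM to 67.1, 66.1 and 66.3 CPM (-0.67, SE 0.04; -0.08 with the offsets). BNIP3 fell from 1158, 1164 and 1137 CPM to 843, 865 and 857 CPM (-0.43, SE 0.02). PDHA1 was at -0.24 (SE 0.03; -0.14 with the offsets), and HIGD1A was at -0.22 (SE 0.04), which turned to 0.25 with the offsets. All 3 basal markers that passed the filter were also higher with sgZHX2 (median 1.26) and with teton_sgZHX2 (median 1.19), where 37.0% and 34.4% of all genes were. Of 8 luminal markers 2 were higher and 3 lower with sgZHX2 (ESR1 -1.32, PGR -1.81), and 1 and 4 with teton_sgZHX2. In the shRNA table the 1 basal marker that passed, KRT17 at a low level, was lower with shZHX2 (-1.89). The part of these markers in the results was not tested. The genes that rose were NDUFA4L2, from 2.67, 1.87 and 1.56 CPM to 5.05, 4.74 and 4.15 CPM (1.19, SE 0.15; 0.58 with the offsets), and LONP1, from 267, 257 and 264 CPM to 354, 359 and 365 CPM (0.45, SE 0.03), the latter turning to -0.08 with the offsets.

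Between teton_sgZHX2 and teton_control 9 of the 10 genes were called, 3 higher and 6 lower, where 69.1% of all genes were called. With GC and length offsets 5 of the 10 were called, and the share of all genes called in that fit is not reported here. PDK3 had 151, 144 and 150 CPM in teton_control and 75.5, 75.0 and 77.7 CPM in teton_sgZHX2 (-0.96, SE 0.03). MXI1 went from 211, 213 and 214 CPM to 113, 115 and 111 CPM (-0.91, SE 0.03), and BNIP3L from 508, 509 and 503 CPM to 290, 296 and 293 CPM (-0.79, SE 0.02; -0.52 with the offsets). PDK1 fell by 0.47 (SE 0.04; -0.03 and not called with the offsets) and BNIP3 by 0.24 (SE 0.02). FUNDC1 was at -0.18 (SE 0.07, adjusted p = 0.0236), a call lost in DESeq2, with library size only, with the offsets (0.05) and without the first teton_control, the first teton_sgZHX2 or the third teton_sgZHX2 library (-0.14 to -0.18). NDUFA4L2 rose by 0.76 (SE 0.15; 0.31 and not called with the offsets), LONP1 by 0.41 (SE 0.03; 0.03 and not called with the offsets) and HIGD1A by 0.15 (SE 0.04; 0.45 with the offsets). PDHA1 was not called (-0.05, SE 0.03; 95% interval -0.12 to 0.01).

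Over the 4 comparisons of a hairpin or guide against ZHX2 with its own control, PDK3 and FUNDC1 were called lower in 4 of 4, as were 7.54% of the 13004 genes tested in all 4; the FUNDC1 call with teton_sgZHX2 was lost under the alternatives given above, which leaves 3 of 4. PDK1, BNIP3, BNIP3L and MXI1 were called lower in 3 of 4, the exception each time being the shRNA table. There PDK1 and BNIP3 were called higher, with calls that were lost or turned under alternatives. NDUFA4L2 was called higher in 3 of 4, and the share of all genes so called was not counted. With GC and length offsets PDK1 (-0.03) and NDUFA4L2 (0.31) were not called with teton_sgZHX2. Being called lower in 3 or more, as PDK3, FUNDC1, PDK1, BNIP3, BNIP3L and MXI1 were, held for 24.8% of all genes. No control library is shared among these 4 comparisons. The change with the guide differed between the teton and the sg groups in 7 of the 10 genes, each with a higher value in the teton groups, where 20.3% of all genes were called (12.0% higher, 8.33% lower). In the hypoxic control groups themselves the levels set side by side differed between tables, BNIP3L standing at 41.8 CPM in the shRNA table and at 242, 329 and 531 CPM in the hexanediol, rescue and sgRNA tables, and MXI1 at 27.6, 63.0, 185 and 221 CPM in the same order; the tables were scaled separately.

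**Figure D3:**
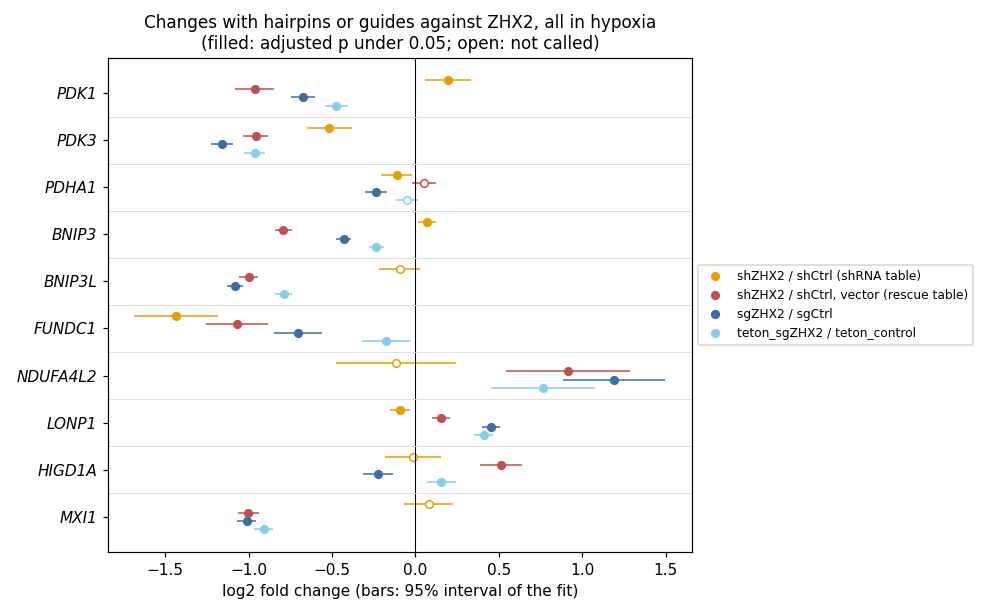
Log2 fold change of the 10 genes in the 4 comparisons of a hairpin or guide against ZHX2 with its control, with 95% intervals of the edgeR fit; filled points were called and open points were not. PDK3 lies below 0 in all 4, NDUFA4L2 above 0 in 3, and LONP1 turns below 0 with GC and length offsets in the rescue table and for sgZHX2.

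In the pathway lists for sgZHX2, the pyruvate gate gave 2 higher and 8 lower of 13, with PDHX at -0.73 (SE 0.05), and mitophagy genes gave 8 and 13 of 23, with the autophagy adaptor gene SQSTM1 at 1.31 (SE 0.02) and PGAM5 at 1.12 (SE 0.06). Respiratory chain genes gave 4 and 3 of 7, proteases 5 and 3 of 9, and MAX network genes 4 and 4 of 11, with MXD1 at -1.61 (SE 0.04) and MXD4 at 0.95 (SE 0.03), both relatives of MXI1. Over all genes 37.0% were called higher and 36.1% lower. For teton_sgZHX2 the counts were 4 and 7, 9 and 13, 5 and 2, 4 and 3, and 3 and 5 for the same lists in that order, where 34.4% of all genes were called higher and 34.7% lower, with SQSTM1 at 1.09 (SE 0.02) and MXD1 at -1.28 (SE 0.04).

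Hexanediol results depended on 2 libraries. The second 0.5% and the second 1% library stood apart from the other 2 of their groups. PDK1 had 67.9, 69.4 and 65.3 CPM in the control, 34.4, 4.10 and 33.2 CPM at 0.5% and 19.9, 6.87 and 23.7 CPM at 1%. BNIP3 had 226, 244 and 215 CPM in the control, 188, 36.9 and 179 CPM at 0.5% and 199, 52.8 and 205 CPM at 1%. In both genes the second treated library was several-fold below its partners. Across genes, the chi-square over its degrees of freedom was 29.5 and 27.3 for replicate pairs with the second 0.5% library, and 3.48 for the other pair. At 1% these values were 9.77, 9.90 and 2.04. The values of the 10 genes are therefore given with and without those 2 libraries. Leaving them out keeps 2 libraries per treated group and narrows the spread of genes that deviated in them. Calls and p-values without them are therefore descriptive. The total counts of the 2 libraries, 14812819 and 17713327, lay within the range of the series.

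With all libraries 4 of the 10 genes were called at 0.5%, 2 higher and 2 lower, where 39.0% of 16840 genes were called, and 5 at 1%, 3 higher and 2 lower, where 62.5% were called. All genes split into 19.4% higher and 19.6% lower at 0.5%, and 30.2% and 32.3% at 1%. Without the second treated libraries all 10 were called at either concentration, where 48.7% and 67.1% of 17248 genes were called. PDK1 was at -1.50 (SE 0.72, not called) at 0.5% and -2.02 (SE 0.74, adjusted p = 0.0532) at 1%, and at -0.998 (adjusted p = 3.3e-12) and -1.63 (adjusted p = 1.02e-16) without those libraries. With the replicate number as a block its value at 1% was -2.22 and was called (adjusted p = 0.0443), as it was in DESeq2 (-1.97), on the compared groups alone (-1.998) and with the offsets (-2.26). In every comparison with the control, that block also pairs control libraries by number. Same-number control and 1% libraries hardly deviated together (correlations 0.03, 0.10 and 0.11), so blocked calls against the control rest on an unshown pairing. PDK1 was lower than in every control library in all 6 treated libraries, and the share of all genes for which this held was not counted.

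PDK3 had 51.5, 51.4 and 56.8 CPM in the control, 47.5, 29.8 and 47.9 CPM at 0.5% and 29.3, 16.7 and 31.6 CPM at 1%. It was at -0.35 (SE 0.26, not called) and -1.05 (SE 0.26, adjusted p = 0.00884), and at -0.16 (adjusted p = 0.0446) and -0.80 without the second libraries. PDHA1 fell at both concentrations, from 386, 429 and 403 CPM to 289, 362 and 306 CPM (-0.35, SE 0.08) and 288, 311 and 292 CPM (-0.45, SE 0.08), and stood at -0.45 and -0.49 without those libraries. The kinases and their substrate were thus lower together at 1%, whether or not the 2 libraries were kept for PDK3 and PDHA1.

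BNIP3L had 239, 259 and 229 CPM in the control, 167, 64.5 and 165 CPM at 0.5% and 136, 72.1 and 136 CPM at 1%. It was not called with all libraries (-0.87 and -1.08, SE 0.41 in both; at 1% called with the replicate block, adjusted p = 0.0438, in DESeq2, on the compared groups alone and with the offsets) and fell by 0.55 and 0.83 without the second ones. BNIP3 was likewise not called (-0.76 and -0.59, SE 0.72 and 0.71), with -0.31 and -0.18 called without those libraries. FUNDC1 rose, from 52.2, 57.7 and 49.4 CPM to 63.9, 75.1 and 66.6 CPM (0.37, SE 0.08) and 61.4, 62.5 and 65.1 CPM (0.25, SE 0.08), and was at 0.30 and 0.25 without the second libraries. At 1% the FUNDC1 call was lost with GC and length offsets (0.20) and without the third 1%, the first control or the third control library (0.19 to 0.23). The mitophagy receptor genes therefore split, FUNDC1 being higher and BNIP3L lower where the second libraries are left out.

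NDUFA4L2 rose at both concentrations, from 3.75, 3.97 and 5.54 CPM to 9.16, 7.94 and 10.9 CPM (1.07, SE 0.18, adjusted p = 0.000321) and 16.4, 21.7 and 17.0 CPM (2.05, SE 0.17, adjusted p = 1.14e-07), a 4.14-fold rise at 1%. Without the second libraries the values were 1.17 and 1.91. MXI1 was not called (0.05 and 0.20, SE 0.35 and 0.34), its second libraries at 33.2 and 55.4 CPM standing below the 61.6 to 63.8 CPM of the control and the other treated libraries at 78.9 to 82.9 CPM. Without the second libraries MXI1 was higher by 0.37 and 0.36. Unlike PDK1 and BNIP3L, MXI1 was thus above the control in the libraries that were kept.

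LONP1 was at -0.31 (SE 0.10) at 0.5%, a call lost in DESeq2 (-0.28), with library size only (-0.19), with the offsets (-0.23) and without the first or the third 0.5% library or any control library (-0.24 to -0.31), and was not called at 1% (-0.04, SE 0.10; 0.43 and called with the offsets). Without the second libraries it was at -0.39 and -0.17. HIGD1A was not called at 0.5% (-0.37, SE 0.20) and was called higher at 1% (0.47, SE 0.19, adjusted p = 0.0413), a call lost in DESeq2, with the offsets (0.34) and without the first or second 1% or the first or the third control library (0.36 to 0.50). Without both second libraries HIGD1A was at -0.65 and 0.37, the sign differing between concentrations.

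Between 1% and 0.5% hexanediol 3 genes were called, all higher, where 56.0% of all genes were called (28.3% higher, 27.7% lower): NDUFA4L2 (0.98, SE 0.16), HIGD1A (0.84, SE 0.19) and LONP1 (0.27, SE 0.10), the last losing its call on the compared groups alone (0.24) and without the first or the third 0.5% or the second 1% library (0.13 to 0.22). With the replicate number as a block, PDK3 was called lower as well (-0.70, adjusted p = 0.00285, against -0.69 and not called without the block). The labels do not state that these 2 groups were paired by number, so that call rests on an unshown pairing. Without the second libraries 6 genes were called, where 60.4% of all genes were, PDK1 (-0.63), PDK3 (-0.64) and BNIP3L (-0.29) being lower. Summed luminal markers stood at 25853 CPM in the control, 13179 CPM at 0.5% and 3315 CPM at 1%. Of the 8, 3 were lower and 2 higher at 0.5% (GATA3 0.62, FOXA1 0.30), where 19.6% and 19.4% of all genes were. At 1% 7 were lower and EPCAM was not called, where 32.3% of all genes were lower. The ZHX2 transcript was higher at 0.5% (0.60, SE 0.12) and 1% (0.56, SE 0.12), and at 0.50 and 0.48 without the second libraries. The part of these shifts in the results was not tested. The 2 concentrations share their control libraries.

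**Figure D4:**
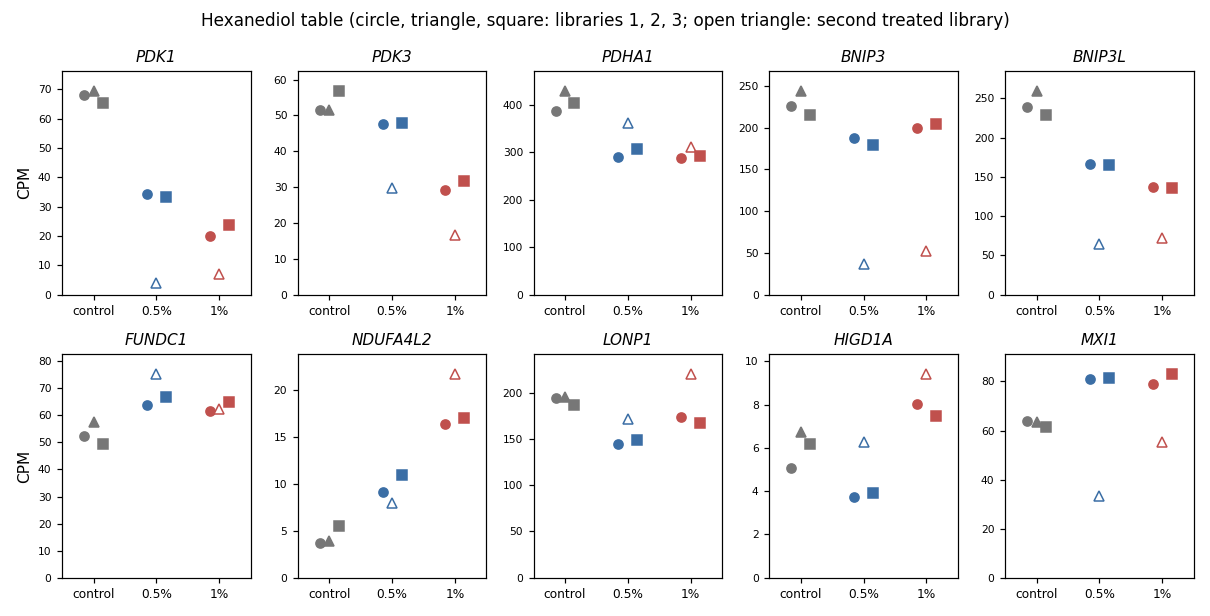
Level of the 10 genes in each library of the hexanediol table, in CPM on linear axes that start at 0, for the control, 0.5% and 1%. Circles, triangles and squares are libraries 1, 2 and 3, and open triangles are the second treated libraries. The open triangles of PDK1 (4.10 and 6.87 CPM) and BNIP3 (36.9 and 52.8 CPM) lie far below the other treated libraries, and those of NDUFA4L2 do not.

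Across the 15 group means of log2 CPM, each centred on its table, the genes whose pattern was most like that of PDK1 among 12560 genes were PGM1, SLC2A1 and JUN (Pearson r 0.952 for each). For BNIP3 they were RIMKLA (0.982), NDRG1 and DDIT4 (0.978 each), and for NDUFA4L2 PSD (0.956), SERPINE2 (0.949) and NAIF1 (0.944). Within the set, BNIP3 correlated with PDK1 (0.896) and MXI1 (0.894), PDK3 with BNIP3L (0.918), and NDUFA4L2 with PDHA1 negatively (-0.902). These are descriptions over 15 points that share tables and libraries, and the means of the hexanediol groups include the 2 libraries that stood apart.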

How the data were processed

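The authors deposited whole-number counts of reads per gene in 4 tables; FastQC, HISAT2, featureCounts, DESeq2 and the build hg38 are named in the submitters' processing notes. The notes name no version, annotation or strand setting, so reads of overlapping antisense genes cannot be told apart: annotated exons of PDK1, PDHA1, BNIP3L, NDUFA4L2, LONP1 and MXI1 overlap a gene on the other strand, and those of HIGD1A a gene on its own strand. Pseudogene copies of BNIP3 (44 in the tables) held 0.118% to 9.80% of its count per library. Symbols matched 60370 of 60624 identifiers; positions, lengths and GC content are from GENCODE 29.

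Counts were tested with edgeR 4.0.16 (R 4.3.3): filterByExpr, TMM, 1 robust quasi-likelihood fit per table, Benjamini-Hochberg adjustment over all genes. CPM use TMM-scaled library sizes within a table. Standard errors are the log2 fold change over the root of F. The method was tested on simulated data. Alternatives were DESeq2 1.42.0, RLE factors, library size only, no filter, compared groups only, a replicate block, loess offsets for GC and length, leaving out each library, and leaving out both second treated hexanediol libraries. Chi-square over its degrees of freedom was 1.77 to 29.5 for the 45 replicate pairs, so none was counted as a duplicate.

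The 10 genes and the 5 pathway lists were chosen with earlier results of these data known. Besides the 10 and ZHX2, up to 3 called genes per list and comparison with the largest change are named (1 of them is not reported here), and the 3 genes most like PDK1, BNIP3 and NDUFA4L2. Replicate numbers were taken to pair 0.5% with 1% hexanediol, where same-number libraries deviated together (correlations 0.343, 0.520 and 0.328). The highest correlation between libraries of unlike number was 0.335. Because the second library stood apart in both groups, deviations from the group means go together whatever the pairing. These correlations therefore cannot show that the libraries were paired. No other pair of groups had all of its 3 correlations over 0.1, yet the replicate block was fitted to all groups of a table.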

Additional observations from a re-analysis of the deposited data

Results flagged for a closer look

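The change from control to guide was compared between the 2 guide systems by an interaction term in edgeR (teton_sgZHX2 against teton_control minus sgZHX2 against sgCtrl). The difference was called for 7 of the 10 genes, all with a higher value in the teton groups, where 20.3% of all genes were called and 12.0% called higher. FUNDC1 differed most, by 0.53 (SE 0.10, adjusted p = 0.000129), with -0.70 in the sg groups and -0.18 in the teton groups. HIGD1A differed by 0.38 (SE 0.06), being lower with sgZHX2 (-0.22) and higher with teton_sgZHX2 (0.15); with GC and length offsets it was higher in both (0.25 and 0.45). BNIP3L differed by 0.29 (SE 0.03), from -1.08 to -0.79. PDK1 differed by 0.20 (SE 0.05) and PDK3 by 0.20 (SE 0.05), and neither was called with the offsets (0.06 and 0.10). BNIP3 differed by 0.20 (SE 0.03) and PDHA1 by 0.19 (SE 0.05). MXI1 (0.10, SE 0.04, adjusted p = 0.0687; called with RLE factors or library size only), NDUFA4L2 (-0.43, SE 0.22) and LONP1 (-0.05, SE 0.04) were not called. The ZHX2 transcript was not called in this test (-0.08, SE 0.06, adjusted p = 0.378).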

How the results depend on the processing

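Of 1909 values of the 10 genes under alternatives, 1780 kept their side of the threshold, 65 lost and 44 gained a call, and 20 changed sign where a call was involved. Of the 1780, 33 that were called in neither fit changed sign, under settings that included DESeq2, the replicate block and leaving out a library. The 20 sign changes came with library size only or with GC and length offsets. Beyond these constructions the cause was not tested. The ZHX2 values listed below also changed sign and are not among the 20. With library size only, BNIP3L was at -0.015 and ZHX2 at -0.34 in hypoxia. In shZHX2 against shCtrl in hypoxia PDHA1 was at 0.12, BNIP3L and LONP1 at 0.14 and HIGD1A at 0.22. PDHA1 was at 0.15 for PA against vector, and PDHA1 at 0.14, LONP1 at 0.035 and HIGD1A at 0.079 for PA against WT. With the offsets LONP1 was at -0.092 in hypoxia, 0.14 in shZHX2 against shCtrl in hypoxia, 0.43 at 1% hexanediol, -0.018 in shZHX2 vector, 0.25 with WT and -0.082 with sgZHX2. PDK1 was at -0.16 in shZHX2 against shCtrl in hypoxia, PDK3 at -0.039 for PA against vector, HIGD1A at 0.069 for PA against WT and 0.25 with sgZHX2, ZHX2 at -0.047 with sgZHX2 and FUNDC1 at 0.053 with teton_sgZHX2.

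With the offsets 5 of the 10 genes were called between 1% and 0.5% hexanediol (3 in the reported fit) and 5 with teton_sgZHX2 (9). The share of all genes called with the offsets in these comparisons is not reported here, so the member counts cannot be set against it. In other comparisons the calls over all genes went from 5964 to 3730 (SA against vector) and from 3206 to 1198 (difference between guide systems). Without both second treated libraries 10 were called at 0.5%, 10 at 1% and 6 between them, where 48.7%, 67.1% and 60.4% of all genes were called (39.0%, 62.5% and 56.0% with all libraries). Leaving out 1 library gave 3 to 5 calls at 1%, the lowest without the first or the third control library. Over all genes 9574 to 10086 were then called, against 10523 with all libraries. Library size only moved the share of higher calls from 50.3% to 67.6% (shZHX2 in hypoxia), 49.7% to 66.0% (0.5%), 48.3% to 59.8% (1%) and 52.0% to 76.4% (PA against vector), with medians of all genes of 0.25, 0.12, 0.13 and 0.17. DESeq2 moved it from 59.0% to 72.7% for the difference between guide systems.

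The replicate block gave 4, 7 and 4 called genes of the 10 at 0.5%, at 1% and between them. Over all 16840 genes the calls went from 6566, 10523 and 9435 to 7082, 10761 and 9809. In the other 11 comparisons the block left the number of the 10 called as it was. In the guide table each teton library correlated best with the same-numbered teton library (0.06, 0.16 and 0.22), a hint from the data and not from the design. At 11 counts in its lowest library, NDUFA4L2 is limited by depth.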

Other observations

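With 1% hexanediol more genes of the wider mitophagy list were higher than lower: of 24 genes that passed the filter 15 were higher and 4 lower, where 30.2% of all genes were called higher and 32.3% lower. PPTC7, a mitochondrial phosphatase that restrains BNIP3 and BNIP3L protein, rose by 1.81 (SE 0.12) and GABARAPL1, an LC3 family gene, by 1.58 (SE 0.09). Without the second treated libraries, where 67.1% of all genes were called, 21 of the 24 were called, with PPTC7 at 1.78 and GABARAPL1 at 1.55. Of 14 pyruvate gate genes 6 were higher and 4 lower, with PDHB, the E1 beta subunit gene, at -1.86 (SE 0.07) and the pyruvate carrier gene MPC1 at 1.54 (SE 0.13). Among the respiratory chain genes ISCU, an iron-sulphur scaffold gene, rose by 1.75 (SE 0.12) and NDUFA4 fell by 0.94 (SE 0.08), beside the rise of its relative NDUFA4L2. Of 9 proteases 1 was higher and 4 lower, with HTRA2 at -1.22 (SE 0.21) and SPG7 at -1.01 (SE 0.09), and of 11 MAX network genes 4 were higher and 3 lower, with MYC at -2.65 (SE 0.13). Without the second treated libraries 13 pyruvate gate, 6 respiratory chain, 7 protease and 9 MAX network genes were called, against 10, 6, 5 and 7 with all libraries. The genes named kept their calls there, PDHB at -1.89, MPC1 at 1.48, ISCU at 1.63, NDUFA4 at -0.93, HTRA2 at -1.25, SPG7 at -1.10 and MYC at -2.72.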
